A study of Rattus norvegicus with 64 samples.

Results

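The urothelial transcription factors Gata3, Foxa1, Grhl3, Grhl2, Elf3, Klf5, Ehf, Tp63, Pparg and Ovol1 were followed in the reconstructed bladder wall of rats. The genes were chosen by name, through the RefSeq accession that each array probe carries, and 9 of the 10 were found among the 15715 genes named on the array. Grhl3 had no named probe and was not measured here. The 9 genes had 14 probes. Gata3, Elf3, Ehf and Pparg had 1 each, and Foxa1, Grhl2, Klf5, Tp63 and Ovol1 had 2 each.

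The urothelium is the stratified epithelium that lines the bladder, with a basal layer, intermediate cells and a surface layer of umbrella cells that carry the uroplakin plaques. Its identity is kept by a set of DNA-binding proteins. Gata3 and Foxa1 open chromatin and bind early at urothelial genes. The grainyhead-like proteins Grhl2 and Grhl3 bind at genes of cell junctions, and the ETS factors Elf3 and Ehf act in epithelial differentiation. Klf5 is a zinc finger factor of proliferating and differentiating epithelia. Tp63 is the p53 relative of basal cells, Pparg is a nuclear receptor that acts in urothelial differentiation and in fat cells, and Ovol1 is a zinc finger repressor that acts in epithelial differentiation.

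RNA came from 64 arrays, 8 for each of 8 groups. Syngeneic male Wistar rats underwent hemicystectomy, in which part of the bladder is cut away, and the defect was closed with bladder acellular matrix (BAM), the bladder wall after its cells are removed. BAM was grafted alone or seeded with ADSCs, cultured stem cells from the adipose tissue of 10-week-old male Wistar rats, and the wall of 1 rat per array was taken at 7, 30, 90 or 180 days. All groups shared the surgery and the matrix, native or sham-operated bladders were not analysed here, and the age of the operated rats is not given in the sources used here. The reconstructed wall is a mixture of host cells that grew into the matrix and, in the seeded grafts, any ADSCs that remained. The level of a probe is log2 of its background-corrected intensity minus the 75th percentile of its array, so that 0 is the brightness of the 75th percentile. Levels of different probes cannot be set against each other.

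The reconstructed wall carried transcripts of a urothelial lining. The uroplakins Upk1a, Upk1b and Upk3a, the basal keratin Krt5 and the junction genes Cdh1 and Epcam were well above background on all 64 arrays. Upk2 was so on 63 and the luminal keratin Krt20 on 58. The share of gene spots that stood well above background was 73.3% to 95.6% per array for the first pair of days and 35.5% to 64.6% for the last pair. Each of the 8 slides held 1 group, and the arrays of 7 and 30 days and those of 90 and 180 days were scanned on 2 different dates, so slide or scan and group cannot be told apart. Among the arrays of BAM only, replicate 5 at 90 days and replicate 7 at 7 days stood apart with the lowest levels of several of these factors. Values without them are given below for part of the graft differences, list counts and correlations they enter.

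Promoters of 6 of the 10 genes are held by the RefSeq table used here, with 7 entries, each from 250 bases before to 50 after a transcript start. Those of Gata3, Elf3 and Klf5 are shown because their levels differed most between the grafts at 7 days among the genes with an entry. The build is GRCr8, and the strand follows the gene. The Gata3 entry is chr17:73553298-73553597 on the plus strand, the Elf3 entry is chr13:49247037-49247336 on the minus strand and the Klf5 entry is chr15:82471831-82472130 on the plus strand. Capitals mark matches to 6 short motifs searched on both strands, which are the letters of GATA factors (AGATAA), grainyhead-like factors (AACCNGTT), ETS factors (CAGGAAG), Krueppel-like or Sp factors (GGGCGG), forkhead factors (TGTTTAC) and the nuclear receptor half-site (AGGTCA). No match overlapped another in these 3 sequences.
Gata3: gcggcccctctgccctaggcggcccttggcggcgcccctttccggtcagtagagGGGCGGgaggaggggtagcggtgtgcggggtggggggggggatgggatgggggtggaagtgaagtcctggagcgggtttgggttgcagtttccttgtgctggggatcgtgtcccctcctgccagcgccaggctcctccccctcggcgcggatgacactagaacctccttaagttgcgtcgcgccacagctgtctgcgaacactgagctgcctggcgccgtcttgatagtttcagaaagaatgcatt
Elf3: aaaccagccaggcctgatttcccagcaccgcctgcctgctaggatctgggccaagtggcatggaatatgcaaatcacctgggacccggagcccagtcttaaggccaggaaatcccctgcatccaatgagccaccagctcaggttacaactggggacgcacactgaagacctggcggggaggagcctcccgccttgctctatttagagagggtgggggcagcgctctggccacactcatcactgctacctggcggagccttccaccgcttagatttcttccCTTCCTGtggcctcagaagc
Klf5: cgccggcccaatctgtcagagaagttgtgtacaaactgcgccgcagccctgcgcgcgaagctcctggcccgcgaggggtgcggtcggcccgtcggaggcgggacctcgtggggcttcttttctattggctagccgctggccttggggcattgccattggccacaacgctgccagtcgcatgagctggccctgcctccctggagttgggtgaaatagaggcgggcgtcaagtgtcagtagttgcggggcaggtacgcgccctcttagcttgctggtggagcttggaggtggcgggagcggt

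The Gata3 window held 1 match to the Krueppel-like letters, which 33.1% of all 33469 promoters of that length hold. The Elf3 window held 1 match to the ETS letters, which 12.5% of all promoters hold. The Klf5 window held no match. None of the 7 entries matched the GATA, grainyhead-like, forkhead or half-site letters, which 11.6%, 2.1%, 3.78% and 16.2% of all promoters hold. The G and C share was 65.0% in the Gata3 window, 59.3% in that of Elf3 and 65.3% in that of Klf5, against a median of 51.7%. These matches are a description of the letters.

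At 7 days, 7 of the 9 factors were higher in seeded grafts than in grafts of BAM only, and none was lower. The 7 were Klf5, Elf3, Gata3, Ovol1, Ehf, Grhl2 and Pparg. Their differences were between 0.93 and 2.01 on the log2 scale, from 1.91-fold to 4.02-fold. The median over the 9 was 1.70, against -0.16 over all probes. A probe was called at a limma adjusted p below 0.01, taken over all 30367 probes, with a fold change over 1.5, and of all probes 2.11% were called higher in this comparison. Foxa1 and the brightest probe of Tp63 were not called. The count uses 1 probe per gene, the brightest over all arrays. In bulk tissue, fewer epithelial cells and less RNA per epithelial cell cannot be told apart.

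Gata3, the zinc finger factor that binds early at urothelial genes, was at -4.44 on the lowest array of BAM only at 7 days, with a median of -2.72 and a highest value of -0.94. In seeded grafts it was at -1.26, -0.75 and -0.46 in the same order. All but 1 of the seeded arrays lay above every array of BAM only. The difference was 1.89 ± 0.34 (SE), 3.72-fold, with a limma adjusted p of 4.47e-05.

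Foxa1, the forkhead partner of Gata3 in the urothelium, went from -4.55 over a median of -3.69 to -2.86 with BAM only, and from -4.03 over -3.05 to -2.66 in seeded grafts. The groups overlapped widely. The difference of 0.65 ± 0.22 (SE) had a limma adjusted p of 0.0282 and was not called. The dimmer Foxa1 probe was well above background on 4 of 8 seeded arrays and on none of 8 with BAM only, and was at least 1.86-fold higher in seeded grafts, with a limma adjusted p of 0.0121. For such bounds, a group with no array well above background is put at the lowest signal well above background of each array, or at its own signal where that is higher.

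The brightest Grhl2 probe, for the grainyhead-like factor of epithelial junctions, was at -4.89, -3.52 and -2.12 (lowest, median and highest array) with BAM only and at -2.21, -1.88 and -1.42 in seeded grafts. Of the arrays with BAM only, 7 lay below every seeded array. The difference was 1.60 ± 0.35 (SE), with a limma adjusted p of 0.000744.

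Elf3, an ETS factor of epithelial differentiation, spanned -2.69 to 2.98 with BAM only, with a median of 1.66, and 2.14 to 3.77 in seeded grafts, with a median of 3.56. On 6 seeded arrays it was above every array of BAM only. The difference was 1.97 ± 0.46 (SE), 3.92-fold, with a limma adjusted p of 0.00144. The second ETS factor, Ehf, spanned -6.22 to -3.11 with BAM only (median -5.36) and -4.30 to -2.79 in seeded grafts (median -3.25). Here the difference was 1.70 ± 0.37 (SE), with a limma adjusted p of 0.000633.

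Klf5, the Krueppel-like factor of epithelia, had the largest difference of the 9 brightest probes. It spanned -4.64 to 0.53 with BAM only, with a median of -0.83, and -0.0041 to 1.15 in seeded grafts, with a median of 0.90. The difference was 2.01 ± 0.42 (SE), with a limma adjusted p of 0.00042. The second Klf5 probe gave 2.24 ± 0.46 (SE) and was called too.

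Pparg had the smallest difference of the 7. Its lowest, median and highest arrays were 0.34, 0.98 and 2.07 with BAM only and 1.23, 1.98 and 2.53 in seeded grafts. The difference of 0.93 ± 0.26 (SE) had a limma adjusted p of 0.00857, close to the threshold, and was called in 4 of the 16 fits that left out 1 of the arrays of this day. Ovol1 spanned -6.57 to -2.08 with BAM only (median -4.04) and -3.23 to -1.79 in seeded grafts (median -2.23), with 3 seeded arrays above every array of BAM only. Its difference was 1.81 ± 0.45 (SE), with a limma adjusted p of 0.00278, and it was called in 14 of those 16 fits.

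**Figure D1:**
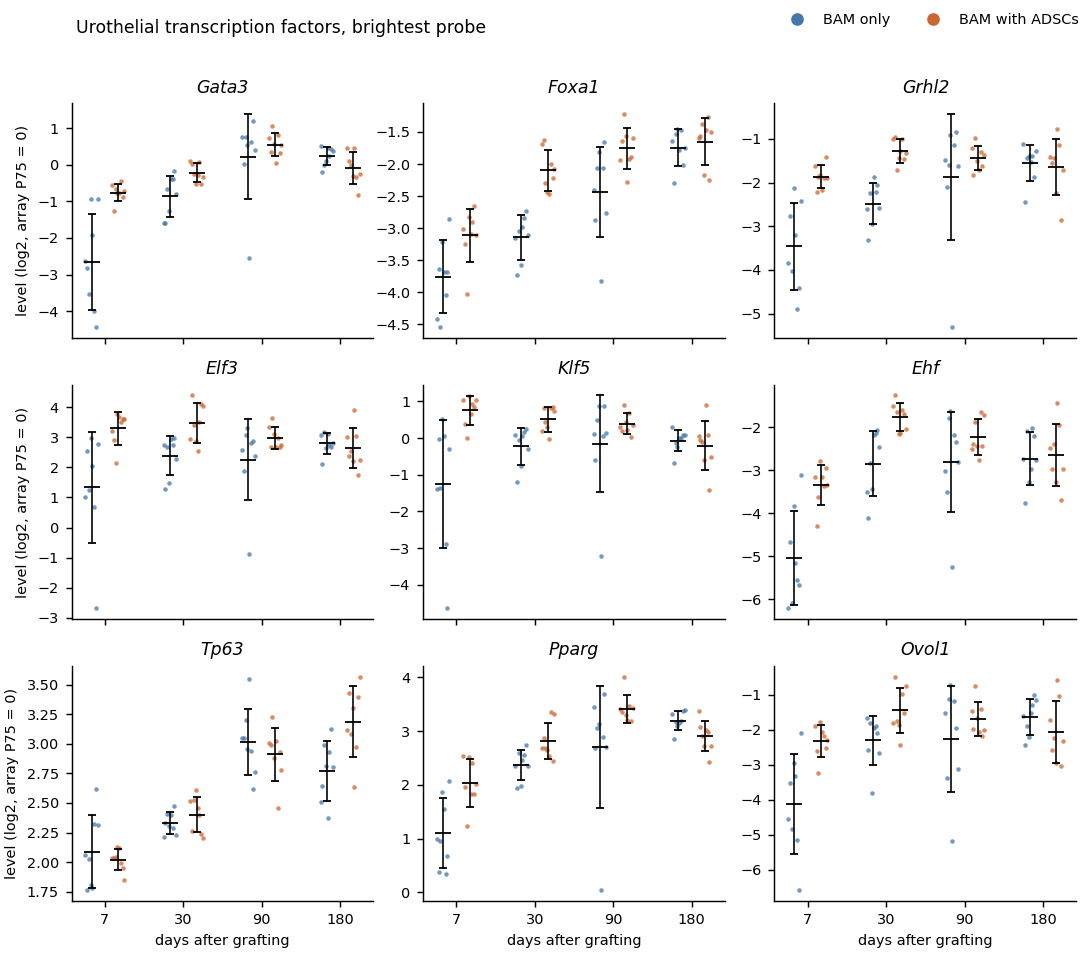
Level of the brightest probe of each factor (log2 intensity, with the 75th percentile of the array at 0) against days after grafting, for BAM only (blue) and BAM seeded with ADSCs (orange). Each point is 1 array, the bars are the mean and SD of 8 arrays, and the vertical axes differ between panels; at 7 days 7 of the 9 panels have a seeded mean above that of BAM only that passed the test, and 1 array of BAM only at 90 days lies far below the others for Gata3, Grhl2, Elf3, Klf5 and Pparg.

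Tp63, the factor of basal urothelial cells, gave different answers on its probes. The brightest, designed to the transcript record NM_001127341, was at 1.76, 2.04 and 2.62 (lowest, median and highest array) with BAM only at 7 days and at 1.85, 2.03 and 2.13 in seeded grafts. The difference was -0.07 ± 0.12 (SE), and it turned to 0.02 after quantile normalization. The second probe, designed to NM_019221 and well above background on all 64 arrays as well, was at -4.20, -0.12 and 1.51 with BAM only and at 0.33, 1.17 and 1.93 in seeded grafts. That difference was 1.54 ± 0.43 (SE), and it was called, with a limma adjusted p of 0.00807. Without replicate 7 of BAM only it was 1.00 ± 0.36 (SE) and was not called, with a limma adjusted p of 0.0544. Which isoforms the records stand for is not given in the sources used here.

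The deviations of these Tp63 probes from their group means ran against each other, with r = -0.54 over the 64 arrays and -0.311 without the 2 arrays that stood apart. Grhl2 and Ovol1 also had a second, dimmer probe that did not follow the first. The dimmer Grhl2 probe was well above background on 33 of 64 arrays, among them 8 of 8 of each graft at 7 days. It was lower in seeded grafts at 7 days by -1.19 ± 0.20 (SE) and was called, where 5.62% of all probes were called lower. Its groups did not overlap, with -3.73 to -3.00 for BAM only and -5.16 to -4.32 in seeded grafts. The dimmer Ovol1 probe, well above background on 34 arrays, among them 8 of 8 of each graft at 7 days, differed by -0.19 ± 0.32 (SE). The r of the dimmer with the brightest probe was -0.171 for Grhl2, -0.252 for Ovol1, 0.531 for Foxa1 and 0.907 for Klf5. Without those 2 arrays that of Ovol1 was 0.066, and those of Grhl2, Foxa1 and Klf5 were -0.19, 0.555 and 0.81. No probe sequences were in the files used here, so what separates the probes of a gene was not tested.

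**Figure D2:**
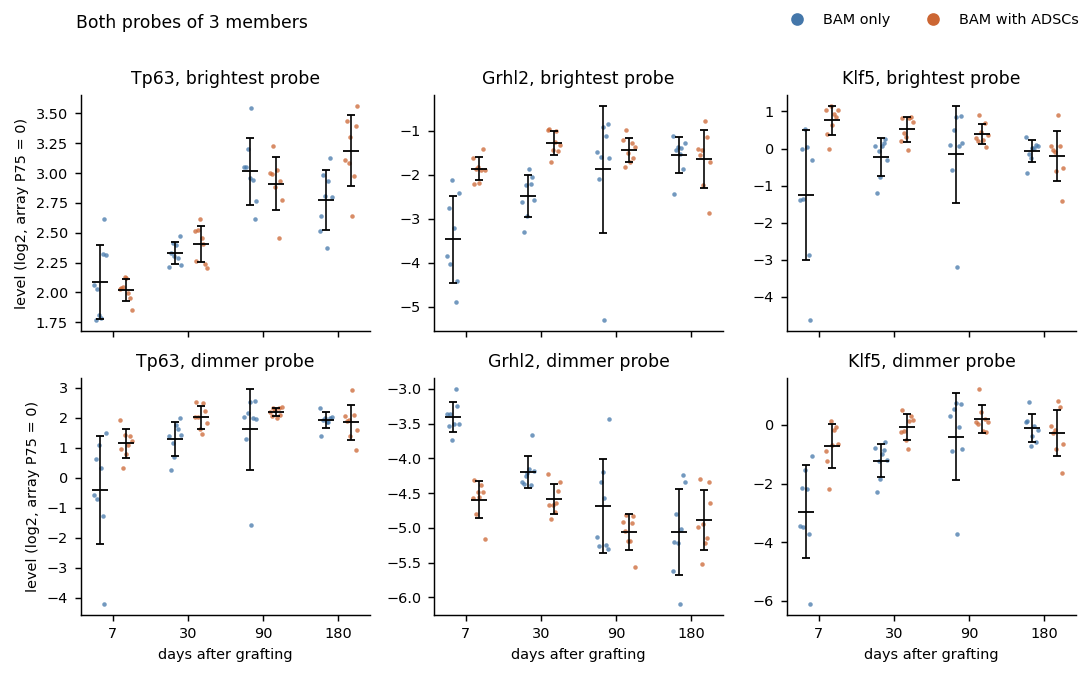
Level of the brightest probe (top) and of the dimmer probe (bottom) of Tp63, Grhl2 and Klf5, in log2 intensity with the 75th percentile of the array at 0, against days after grafting; points are arrays and bars are mean and SD of 8. Both Klf5 probes were higher in seeded grafts at 7 days, whereas for Tp63 only the dimmer probe was, and the dimmer Grhl2 probe was lower.

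The arrays with BAM only at 7 days were uneven, and those with few epithelial transcripts were low for most factors together. Without replicate 7, Klf5 was at 1.52, Elf3 at 1.40, Gata3 at 1.64, Grhl2 at 1.46 and Ehf at 1.61. The count of called factors was then 5 of 9, and Ovol1 and Pparg were no longer called. Without replicate 6, whose epithelial score was the next lowest, it was 5 as well, without the same genes. Leaving out each of the 16 arrays in turn gave 5 to 8 called. When the fit held only these 2 groups, with their own spread, 3 were called, namely Gata3, Grhl2 and Ehf. With normexp background correction 5 were called, without Ehf and Ovol1. The median of all probes differed between the grafts by -0.16 on day 7, by 0.11 on day 30, by -0.27 on day 90 and by 0.06 on day 180, and after quantile normalization, which brings that of 7 days to -0.0058, 8 of 9 were called, Foxa1 among them.

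At 30 days the factors stood higher in seeded grafts on average, but 1 of 9 was called. This was Foxa1, and 1.2% of all probes were called higher. It was at -3.73, -3.08 and -2.73 (lowest, median and highest array) with BAM only and at -2.47, -2.15 and -1.63 in seeded grafts, so that the groups did not overlap. The difference was 1.05 ± 0.22 (SE), 2.06-fold, with a limma adjusted p of 0.00161. Grhl2 did not overlap either, with -3.31 to -1.87 against -1.71 to -0.95. Its difference of 1.21 ± 0.35 (SE) had a limma adjusted p of 0.0253. Of all probes, 1.93% did not overlap at 30 days, and on days 7, 90 and 180 the share was 4.46%, 3.17% and 1.99%, and apart from these 2 no brightest probe of the factors did so at any day. The median over the 9 was 0.86 at 30 days, 0.58 at 90 days and -0.13 at 180 days. The other 7 differences at 30 days were between 0.07 for Tp63 and 1.09 for Ehf and Elf3. With the mean of all probes of a gene, Foxa1 was not called. The dimmer Foxa1 probe was higher in seeded grafts, with a mean of -4.97 against -5.75, but its groups overlapped and it was not called. The dimmer Grhl2 probe ran the other way, with a mean of -4.58 in seeded grafts and -4.20 with BAM only. It was not called, although 6 of 8 seeded arrays lay below every array of BAM only.

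At 90 and 180 days limma called 0 of 9 factors. Of all probes 12.5% were called in either direction at 90 days and 2.44% at 180 days. At an unadjusted p below 0.05 there were 2 factors at 90 days and 1 at 180 days, and the 2-way analysis of variance without moderation called none at either day. At 90 days the differences lay between -0.10 for Tp63 and 0.73 for Elf3. Without replicate 5 of BAM only, which was at -5.31 for Grhl2 where the nearest array was at -2.11, they lay between -0.06 for Gata3 and 0.48 for Foxa1. The dimmer Ovol1 probe was called lower in seeded grafts at 90 days. It was well above background on 0 of 8 seeded arrays and 1 of 8 with BAM only at that day, and no size is given for it. At 180 days the differences ran from -0.42 for Ovol1 to 0.42 for Tp63, which had a limma adjusted p of 0.0195.

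**Figure D3:**
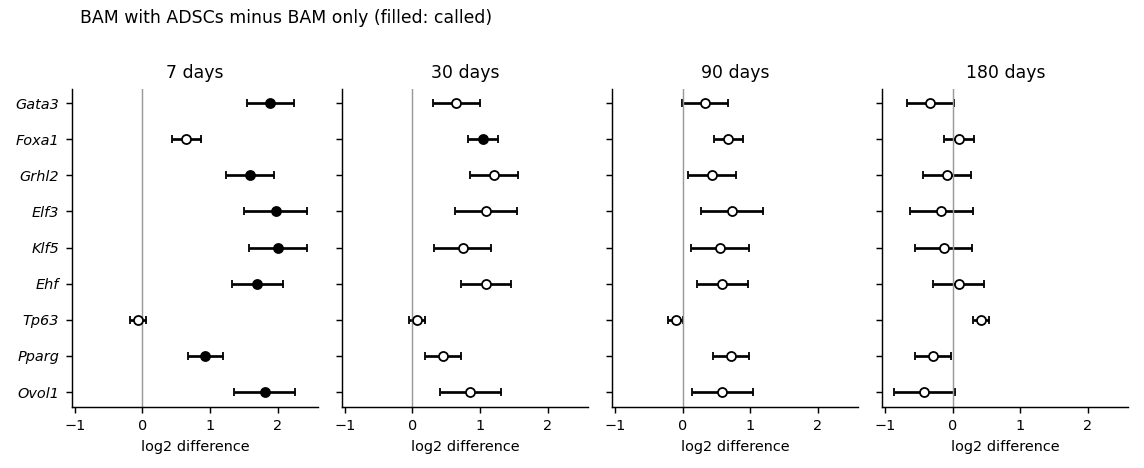
Difference in level between BAM seeded with ADSCs and BAM only (log2, horizontal axis) for the brightest probe of each of the 9 factors, by day. Points are the limma estimates, bars are standard errors and filled points were called; 7 points are filled at 7 days, that of Foxa1 at 30 days and none later.

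Whether the graft difference itself changed with the day was tested by the interaction. Gata3 alone was called among the 9, with a limma adjusted p of 0.00244, and 18.5% of all probes were called. Seeded grafts exceeded BAM only for Gata3 by 1.89 on day 7, by 0.65 on day 30 and by 0.33 on day 90, and the difference was -0.33 on day 180. Klf5 and Grhl2 had a limma adjusted p of 0.0255 and 0.0228. The dimmer Grhl2 probe was called as well, at 0.00158. Without replicate 5 of BAM only at 90 days the interaction was called for Klf5, Grhl2, Gata3 and Pparg. Without replicate 4 of BAM only at 7 days it was called for Klf5, Grhl2 and Gata3, and without replicate 5 of seeded grafts at 180 days for Tp63 and Gata3.

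Between 7 and 30 days with BAM only, 4 of 9 factors rose. They were Ehf, Ovol1, Gata3 and Pparg, with 4.44% of all probes called higher. Ehf rose by 2.20 ± 0.37 (SE), from a mean of -5.04 to -2.84. Ovol1 rose by 1.82, Gata3 by 1.79 and Pparg by 1.27. When the fit held only these 2 groups, 2 were called, Ehf and Pparg. Of the dimmer probes, those of Klf5 and Tp63 rose by 1.74 and 1.68, that of Foxa1 was called higher with no array well above background at 7 days, and that of Grhl2 was called lower at -0.79. In seeded grafts Ehf and Foxa1 were called between the same days, 2 of 9, with 6.67% of all probes called higher. Ehf rose by 1.59 ± 0.37 (SE) and Foxa1 by 1.01 ± 0.22 (SE). These comparisons share arrays with the graft comparisons above.

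From 30 to 90 days with BAM only, Gata3, Foxa1 and the brightest Tp63 probe were called higher, 3 of 9, in a comparison in which 35.2% of all probes were called higher and the median of all probes rose by 0.30. The rises were 1.08, 0.71 and 0.69. Leaving out replicate 2 or 4 of 30 days, or replicate 4 or 7 of 90 days, left Tp63 alone, and leaving out replicate 5 of 90 days gave 5 called. Limma called none of the 9 between 90 and 180 days with BAM only, where 9.39% of all probes were called, nor in seeded grafts from 30 to 90 days, with 28.1% called, or from 90 to 180 days, with 4.14% called. At an unadjusted p below 0.05 there were 2, 3 and 1 factors in these 3 comparisons, and the 2-way analysis of variance called none in any of them. In seeded grafts Tp63 differed by 0.51 between 30 and 90 days, with a limma adjusted p of 0.000274, which is below the 1.5-fold threshold. The dimmer Ovol1 probe was called lower in this comparison, with no array well above background at 90 days. The dimmer Foxa1 probe was called higher, although it was well above background on 8 of 8 arrays at 30 days and 3 of 8 at 90 days, and no size is given for it. The scan date changed between 30 and 90 days for every probe and both grafts. Scan and day therefore cannot be told apart in any difference between these days, those with sizes above among them. The median of all probes moved in seeded grafts by 0.27, 0.11 and 0.21 over the 3 steps, and by -0.24 between 90 and 180 days with BAM only.

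Ordered by mean, BAM only at 7 days was the lowest of the 8 groups for Gata3, Foxa1, Grhl2, Elf3, Klf5, Ehf, Pparg and Ovol1. The step to the next group was larger than the larger of the 2 SDs for Gata3, Foxa1, Ehf, Pparg and Ovol1, and not for Grhl2, Elf3 and Klf5. Gata3 was at -2.65 ± 1.32 (SD, n = 8) there, followed by -0.86 ± 0.56 with BAM only at 30 days. Its later neighbors did not differ beyond their spread, except seeded grafts at 7 days at -0.76 ± 0.24 from those at 30 days at -0.21 ± 0.25. The brightest Tp63 probe had a single step beyond its spread, from 2.40 ± 0.15 in seeded grafts at 30 days to the groups of 90 and 180 days. That step separates the 2 scan dates.

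Other epithelial genes were called higher in the same comparison. The uroplakins, which form the plaques of umbrella cells, were called higher in seeded grafts at 7 days for 4 of 4 genes on the array, with Upk2 at 2.87 and Upk1a at 2.36 and a list median of 2.32. Of the luminal keratins 4 of 6 were called higher, with Krt18 at 2.14 and Krt8 at 2.05. Of 15 epithelial markers 10 were called higher, with Epcam at 2.60 and a list median of 1.67, and none was lower. No basal keratin of 4 was called, with a list median of 1.32, and Krt5 at 1.72 had a limma adjusted p of 0.0236. Over all probes the median was -0.16. Without replicate 7 of BAM only, a fit chosen after seeing the data, 4 of 4 uroplakins, 2 of 6 luminal keratins and 5 of 15 epithelial markers were called higher. The list medians were then 1.70, 1.34 and 1.25, with Upk2 at 2.24 and Epcam at 1.94.

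Among other epithelial transcription factors, 5 of 17 were called higher at 7 days and none lower, with a list median of 0.66. Foxq1, a forkhead factor, was at 1.70 ± 0.37 (SE). Rxra, the partner with which Pparg binds DNA, differed by 0.09. Of 5 repressors of epithelial genes 1 was called, Zeb2, lower by -0.75 ± 0.21 (SE), and without replicate 7 of BAM only it was not called. Of 12 lipid targets of Pparg 1 was called, Cpt1a, which carries fatty acids toward mitochondria, at 0.94 (not called without that replicate), while the fatty acid binding protein Fabp4 was at 0.75 with a limma adjusted p of 0.0295. None of 8 adipocyte genes was called, with a list median of -0.41. At 30 days 4 of the 17 other epithelial factors and 2 of the 15 epithelial markers were called higher, and none of the uroplakins or keratins.

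For the other cells of the wall at 7 days, 0 of 9 smooth muscle genes were called (median 0.49), 0 of 9 fibroblast genes (median -0.18) and 0 of 3 mesothelial genes (median -0.24). Against the 5.62% of all probes called lower, 1 myeloid gene of 10 was lower, Csf3r at -1.82, and 1 T cell list gene of 10, Il1rl1 at -1.34. Of the endothelial genes 2 of 7 were lower, Vwf at -0.997 and Kdr at -0.68, and without replicate 7 of BAM only Kdr was not called. Of 9 squamous genes 1 was higher, Sprr1a at 2.56, and 1 was lower, Tgm3 at -1.36. The mean level of the 10 myeloid genes, each well above background on some array of both groups, ranged from 1.87 to 2.92 with BAM only and from 1.44 to 2.14 in seeded grafts, and its part in the results was not tested.

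The level of each factor was therefore set against an epithelial score, the mean level of the 15 epithelial markers on the same array. At 7 days the score ranged from -3.45 to 0.18 with BAM only and from -0.37 to 0.53 in seeded grafts. Its mean was -1.20 ± 1.25 and 0.28 ± 0.31 (SD, n = 8). Relative to the score, none of the 7 factors called at 7 days differed between the grafts at an adjusted p below 0.05, in 36 two-sided exact permutation tests of 8 against 8 arrays adjusted together. Their relative differences ran from -0.55 for Pparg to 0.52 for Klf5. Gata3 was at 0.41, with an exact p of 0.101 and an adjusted p of 0.261. With normexp background correction Elf3, which is among the 7, did pass.

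With the main processing, those that passed at 7 days were Foxa1 and the brightest Tp63 probe. Foxa1 was lower relative to the score in seeded grafts, at -3.39 ± 0.17 against -2.56 ± 1.05 (SD, n = 8). The difference was -0.83, with an adjusted p of 0.0266 in the exact permutation test. Its own mean level was higher in seeded grafts, at -3.11 against -3.76, while the mean score was 0.28 against -1.20. The score thus differed more than Foxa1 did, and the relative difference does not show a lower level of Foxa1. The dimmer Foxa1 probe differed by -0.13 relative to the score, which is given without a test. The brightest Tp63 probe was lower by -1.55 with an adjusted p of 0.0302 in the exact permutation test, where its own level had differed by -0.07. Its relative difference thus mostly restates the difference of the score and does not show a change of this probe. Relative to the score, the second Tp63 probe differed between the grafts by 0.06. Leaving out 1 array left 0 to 3 factors, and none of them without any of seeded replicates 1, 2, 4, 5, 6, 7 and 8.

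At 30 days Pparg and the brightest probes of Klf5 and Tp63 were lower relative to the score in seeded grafts. Klf5 was at -0.34 ± 0.17 against 0.0044 ± 0.08 (SD, n = 8), a difference of -0.34, and Pparg was at 1.96 ± 0.31 against 2.60 ± 0.30, a difference of -0.64. Both had an exact p of 0.000155, the smallest that 12870 splits can give two-sided, and an adjusted p of 0.0028. The second Klf5 probe did not share this, at -0.94 against -0.99, a relative difference of 0.05 that is given without a test. The brightest Tp63 probe differed by -1.01, with an adjusted p of 0.00746 in the exact permutation test. Its own mean level was 2.40 in seeded grafts and 2.33 with BAM only, while the mean score was 0.85 and -0.23. The relative difference of this probe thus mostly restates that of the score. The second Tp63 probe differed by -0.34 relative to the score, again without a test. At 90 and 180 days 0 of 9 passed. With Cdh1 and Epcam in place of the list, Klf5 passed at 90 days.

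**Figure D4:**
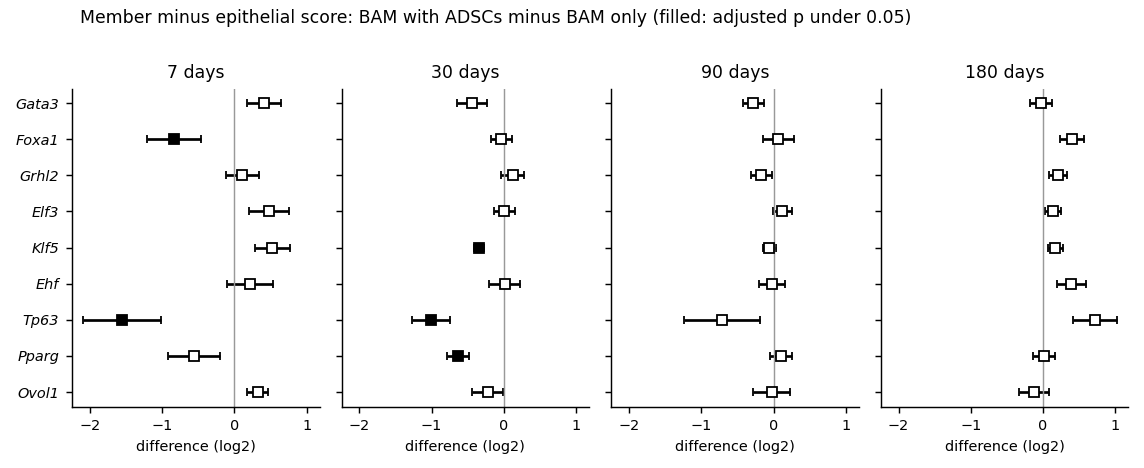
Difference between BAM seeded with ADSCs and BAM only after the epithelial score of the same array was subtracted from each factor (log2, horizontal axis), by day; bars are standard errors from the SDs of 8 against 8 arrays. Filled squares had an adjusted p under 0.05 in the exact permutation test, 2 at 7 days and 3 at 30 days.

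The relation of each factor to the epithelial score was then taken within each group of 8 arrays. Of 72 relations of a factor with the score 43 had an adjusted p below 0.05 for Pearson's r and 28 for Spearman's rho, from exact permutation of the 8 arrays. For Klf5 7 of 8 groups passed for r, and r over all 8 groups, passed or not, ran from 0.687 to 0.99. For Elf3 6 groups passed, and r over all 8 ran from 0.727 to 0.982. In BAM only at 7 days Elf3 had r = 0.959 and rho = 0.976, with an exact adjusted p of 0.00179 and 0.00408, and r = 0.989 without the 2 arrays farthest from the median score. Elsewhere the trimmed r was lower. Over the 8 groups it ran from -0.24 (BAM only at 180 days) to 0.989 for Elf3 and from -0.236 (seeded grafts at 7 days) to 0.944 for Klf5. For Elf3 it was also 0.157 in seeded grafts at 7 days and 0.12 in those at 90 days, so that r there depends much on the 2 arrays. With all arrays rho in these groups was 0.881 and 0.714, with an exact adjusted p of 0.0237 and 0.0987. The median trimmed r over the groups was 0.345 for Gata3, 0.406 for Grhl2 and 0.462 for Ovol1. With all arrays, all 8 groups had a positive r for each factor except Tp63.

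Gata3 followed the score less evenly than Klf5 and Elf3, with r from 0.122 to 0.957 and 4 of 8 groups passed. Grhl2 was much alike, with r from 0.281 to 0.985 and 4 groups passed. Foxa1 and Ehf passed in 4 groups as well. In BAM only at 7 days Gata3 had r = 0.913 and rho = 0.905, with an exact adjusted p of 0.00565 and 0.0183, and r = 0.859 without the 2 farthest arrays. In seeded grafts at 7 days it had r = 0.122 and rho = -0.238, with an exact adjusted p of 0.739 and 0.626. In BAM only at 90 days r was 0.957 and rho 0.69, with an exact adjusted p of 0.0142 and 0.109, and r was 0.352 without the 2 farthest arrays, so that this relation rests on those arrays.

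The brightest Tp63 probe had r from -0.874 to 0.376 with the score, negative in 4 groups. In seeded grafts at 30 days it had r = -0.874 and rho = -0.786, with an exact adjusted p of 0.0248 and 0.0591, and r = -0.757 without the 2 farthest arrays. The second Tp63 probe had r from 0.682 to 0.988, positive in all 8 groups, which is given without a test.

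**Figure D5:**
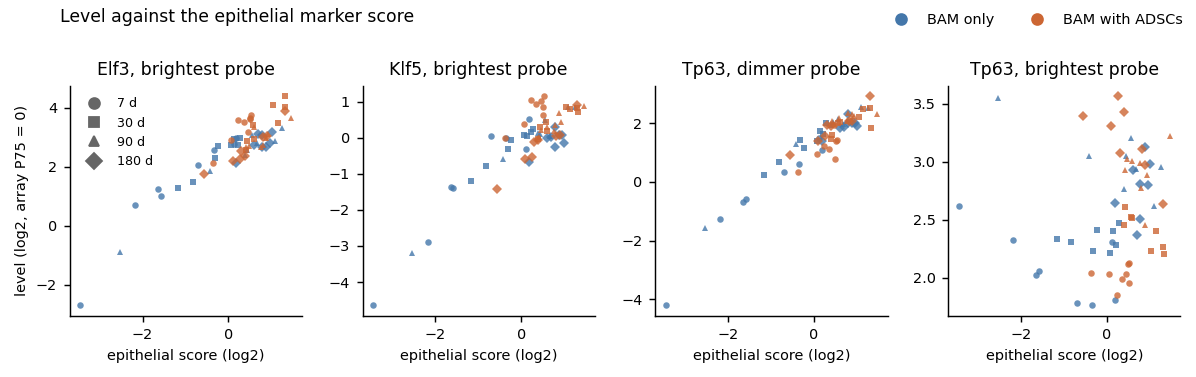
Level of 4 probes (log2 intensity, 75th percentile of the array at 0) against the epithelial score of the same array (mean level of 15 epithelial markers, log2). Each symbol is 1 of 64 arrays, colored by graft and shaped by day; Elf3, Klf5 and the dimmer Tp63 probe climb with the score, while the brightest Tp63 probe lies between 1.76 and 3.57 at all scores.

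Among themselves the 8 factors other than Tp63 varied together, measured as the Pearson r of deviations from the group mean over the same 64 arrays. Over their 28 pairs r ran from 0.61 to 0.944, with a median of 0.773. The 8 pairs with the brightest Tp63 probe ran from -0.604 to -0.204. Without the 2 arrays that stood apart the 28 pairs ran from 0.52 to 0.87, with a median of 0.717, and the 8 pairs with Tp63 from -0.432 to -0.053. Among genes well above background on at least 32 arrays, those most like the mean of the 9 factors included Tmc4 (r = 0.971), Grb7 (0.969), Myo5b (0.966), Spint1 (0.963), C5h1orf210 (0.959), Lrrc8e (0.957), Ap1m2 (0.953), Cdh1 (0.95) and Spint2 (0.949). Without those 2 arrays, r for these genes was between 0.915 and 0.95.

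For single factors the genes of highest r differed. The 3 genes of highest r included Fbp2 (0.918) and Paqr5 for Gata3, and C5h1orf210 (0.928) and Lrrc8e for Grhl2. Elf3 was most like Pof1b (0.957), Fxyd3 and Esrp1, and Klf5 most like Kdf1 (0.963), Pof1b and Cdh1. Pparg was most like Mycl (0.921), Ugt1a6 and Paqr5, and those of Ovol1 included Myo5b and Spint1 (both 0.885). Foxa1 and Ehf had looser neighbors, Klc3 (0.862), Fam81a and Tmprss13 for Foxa1 and Sh3yl1 (0.856), Llgl2 and Eps8l1 for Ehf. The brightest Tp63 probe was most like Rassf2 (0.807), Extl3 and Sox9, and the second Tp63 probe most like Fxyd3 (0.971), Kdf1 and Fat2. These values describe arrays that share their tissue mixture and carry no test.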

How the data were processed

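Total RNA of the reconstructed bladder wall was hybridized to 64 1-color Agilent rat arrays, 8 per group. Per the file headers, the scans were read with Agilent Feature Extraction 12.0.1.1. From this software the authors deposited, among others, a linear intensity per spot that was already corrected for background, and that intensity was used. A deposited series matrix of intensity values was used as an alternative only. In 61 of its 64 columns the median log2 ratio to the scanner files was within 0.01 of 0, and 1 of these columns had no value at 24873 gene spots. In the other 3, all of seeded grafts at 7 days, the median log2 ratio was -3.309 to -3.304. Samples were grouped by the graft and day of their labels.

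Control spots and spots marked as outliers were left out, and the intensity was taken to log2 and the array's 75th percentile subtracted. Spots of a probe were averaged. Of 22372 probes with a RefSeq accession, 18758 were named through a table of assembly GRCr8, which was used for names. Promoters came from RefSeq on GRCr8. A limma model (version 3.58.1, R 4.3.3) held 1 mean per group over the 64 arrays, and p-values were adjusted by Benjamini-Hochberg over 30367 probes. Calls followed the thresholds given above, with the adjusted p alone for the interaction. The rest used Python 3.11.15, numpy 2.4.6 and scipy 1.17.1. The limma fit and the permutation test were tested on simulated data.

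Genes named were all members with every probe, from each list at most its first 2 genes and the 2 called genes of largest difference, and the genes of highest r described above. Some genes that this rule names are not reported here. The members and lists were chosen with earlier results of these data known. The lists were other epithelial transcription factors, repressors of epithelial genes, uroplakins, basal keratins, luminal keratins, epithelial markers, Pparg lipid targets, adipocytes, squamous differentiation, smooth muscle, fibroblasts, myeloid cells, T cells, endothelium and mesothelium. Alternatives were normexp with an offset of 50 on the median signals, quantile normalization, a percentile over detected probes, the series matrix, dim probes left out, only the groups compared fitted, the replicate number as a block, a 2-way analysis of variance, an unadjusted p, a 2-fold threshold, the mean of all probes of a gene, outlier spots kept and each array left out. The lists and dimmer probes at 7 days without replicate 7 of BAM only, and the correlations without it and replicate 5 of 90 days, were added after seeing the data. Slide was not used as a block, because each slide held 1 group. The number of arrays limits the precision.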

Additional observations from a re-analysis of the deposited data

Results flagged for a closer look

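Of 72 groups of 8 arrays, 1 for each factor and group, 9 had an array whose gap to the nearest other array was large against the range of the group, and chance gives about 1 in 20. The share of the range taken by the gap was 0.688 for Gata3, 0.718 for Grhl2, 0.655 for Elf3, 0.642 for Klf5 and 0.726 for Pparg, and all 5 were the lowest array of BAM only at 90 days, replicate 5. That array also had the lowest epithelial score of its group, at -2.54, where the next was at -0.43. The other 4 were Elf3 in BAM only at 7 days (lowest, replicate 7, 0.597), Foxa1 in seeded grafts at 7 days (lowest, replicate 3, 0.576), Ovol1 in BAM only at 30 days (lowest, replicate 4, 0.534) and Pparg in seeded grafts at 90 days (highest, replicate 3, 0.653).

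The graft difference of Gata3 differed between days, with a limma adjusted p of 0.00244 for the interaction.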

How the results depend on the processing

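At 7 days, fitting only the groups compared gave 3 called factors in place of 7, and leaving out 1 array gave 5 to 8. At 30 days the count of 1 became 2 with normexp and with only the groups compared fitted, 3 with an unadjusted p and 0 with the mean of all probes of a gene. Leaving out 1 array gave 1 throughout. At 90 days the count of 0 became 1 with quantile normalization, 2 with an unadjusted p and 0 to 1 with 1 array left out (Foxa1, without BAM only replicate 4 or 7 or seeded replicate 5). At 180 days it was 0 with any array left out.

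With BAM only, the count between 7 and 30 days became 2 with only these groups fitted and 3 to 5 with 1 array left out. Between 30 and 90 days it became 1 with only these groups fitted and 1 with a 2-fold threshold, and 1 to 5 with 1 array left out. Between 90 and 180 days it became 1 with quantile normalization, with dim probes left out and with an unadjusted p, and 0 to 1 with 1 array left out (Foxa1, without replicate 4 or 7 of 90 days or replicate 2 of 180 days). In seeded grafts, the fit of only the groups compared gave 4 between 7 and 30 days and 2 between 30 and 90 days, where the mean of all probes gave 1. Leaving out 1 array gave 2 between 7 and 30 days and 0 between the later days. The interaction gave 3 with an unadjusted p and 1 to 4 with 1 array left out.

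With the replicate number as a block, 7, 1, 0 and 0 factors were called at the 4 days, and no call changed. The labels do not say whether the numbers pair the rats. The correlation of same-numbered arrays of a day ran from -0.276 to 0.328, which cannot settle it.

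Relative to the epithelial score, normexp gave 3 at 7 days, with Elf3 added. Cdh1 and Epcam in place of the list gave 1 at 90 days. Leaving out 1 array gave 0 to 3, 3 to 4, 0 to 1 (Gata3, without BAM only replicate 4) and 0 to 2 (Foxa1 and Tp63, without seeded replicate 5) at the 4 days. With the mean of all probes Tp63 turned at 7 days to 0.74 and was called. The 7 factors called at 7 days with that setting shared 5 with the main fit. Tp63 and Foxa1 were gained, and Grhl2 and Ovol1 were no longer called. Of 1078 values of single factors under the alternatives 19 had the other sign, 13 of them with the mean of all probes. The cause of these changes was not tested. Brightness over background limits the dimmer Foxa1 probe, and those of Grhl2 and Ovol1 at 90 and 180 days. At 7 and 30 days the dimmer Grhl2 and Ovol1 probes were well above background on 8 of 8 arrays of each group.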
